A study of Homo sapiens with 30 samples.

Results

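TIP60 was depleted in SW480 cells, an established line from a human colorectal adenocarcinoma in which WNT signalling is constitutively active, and RNA was sequenced after depletion. The comparison was chosen by the labels and holds 9 of the 30 libraries of the series. These are 3 libraries with a control siRNA (siControl), 3 with siTIP60-2 and 3 with siTIP60-11. All 9 received an siRNA at 10 nM and were harvested after 48 h, so that transfection and an siRNA are shared by the controls. Depletion was transient, in a whole cell population of 1 line, and the labels give no sequence for either siRNA. SW480 cells given siBRD8-6 or siBRD8-36 (6 libraries), siRNAs against the TIP60 partner BRD8, served for comparison. So did HCT116 cells, another colorectal cancer line, given siControl, siTIP60-2 or siTIP60-11 (9 libraries). The BRD8 libraries of SW480 also entered the main fit, where they shared in the filter on low counts and the estimate of spread. The fit between lines held all 30 libraries. The labels do not say whether replicates were separate cultures, and p-values therefore reflect only the variation among these libraries, part of which may be technical.

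TIP60, encoded by KAT5, is a histone acetyltransferase of the MYST family and the catalytic subunit of a large chromatin complex. The complex acetylates histones H4 and H2A, and its EP400 subunit exchanges H2A for the variant H2A.Z. It is recruited by transcription factors such as MYC and E2F and also acts in the response to DNA breaks.

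KAT5 (ENSG00000172977, protein-coding, chr11:65711996-65719604 on the plus strand of GRCh38) checks the labels. It stood at 38.0, 41.6 and 39.0 CPM (counts scaled to a common library size) in the control libraries, at 3.80, 3.38 and 2.31 with siTIP60-2 and at 5.10, 5.68 and 5.38 with siTIP60-11. The 6 depleted libraries lay far below all 3 controls, with no overlap. The remaining level was 7.999% of control with siTIP60-2 and 13.6% with siTIP60-11. On the log2 scale KAT5 fell by 3.64 ± 0.13 (SE, n = 3 libraries a group) with siTIP60-2 and fell by 2.87 ± 0.11 with siTIP60-11 (edgeR's quasi-likelihood test on both siRNAs, Benjamini-Hochberg adjusted p = 1.69e-16). The siRNAs differed in this, by 0.77 ± 0.17 (edgeR adjusted p = 0.000464).

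A gene was called where its change had the same sign with both siRNAs and each passed, the weaker of the p-values being below 0.05 once adjusted over all 15277 genes tested. By this rule 3702 genes (24.2%) changed. Of these, 1802 rose (11.8%) and 1900 fell (12.4%). Both siRNAs were set against the same 3 control libraries, so their calls are not independent of each other. Alone, siTIP60-2 gave 7556 calls (49.5% of genes) and siTIP60-11 gave 7266 (47.6%). For 5247 genes (34.3%) all 6 depleted libraries lay beyond all 3 controls, and 3630 of the called genes were among them. Most shared changes were small. The median of the smaller of the 2 log2 changes was 0.46 in size among genes that rose and 0.38 among genes that fell. At least 2-fold changes with both siRNAs numbered 293, with 216 higher and 77 lower, and at 4-fold they numbered 25 higher and 2 lower. The balance of directions depended on the scaling. It was 2177 higher and 1526 lower with upper-quartile scaling, and 2239 higher and 474 lower with limma on log2(TPM + 1), TPM being abundance scaled by transcript length and depth, where the median log2 change of all genes moved from 0.01 to 0.18. Values below are CPM and TMM-scaled log2 fold changes unless stated. List medians are to be read against 0.01 for all genes, and a call lost with TPM is one lost against that shifted centre. Counts of list members called are likewise to be read against the 11.8% higher and 12.4% lower of all genes. All lists and their members were chosen with earlier results of these data known, so that list counts and medians describe their members only. Members named from a list do not stand for the list.

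**Figure D1:**
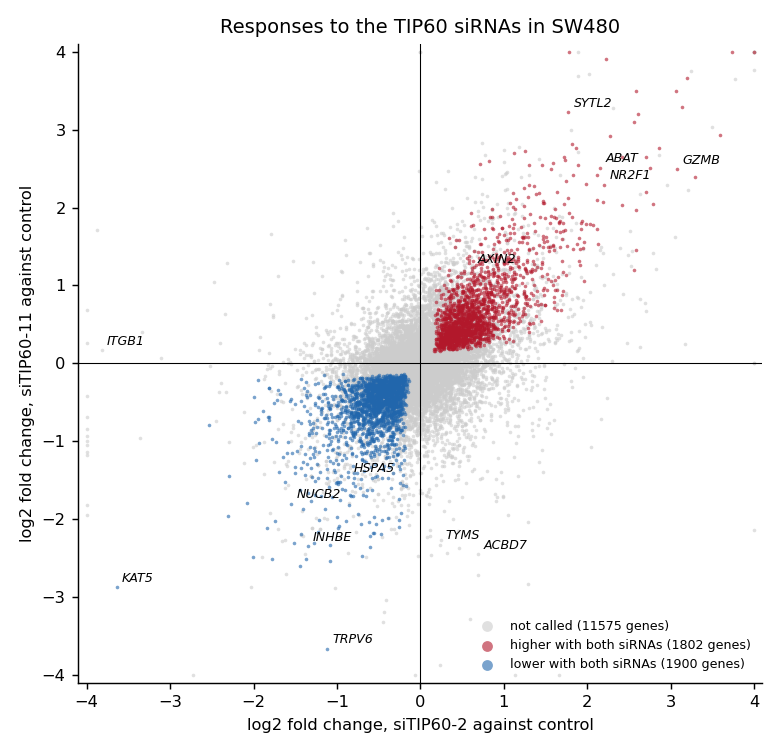
Log2 fold change of each tested gene with siTIP60-2 (horizontal axis) against siTIP60-11 (vertical axis) in SW480, both against the same 3 control libraries, with genes called by both siRNAs in colour and values beyond 4 drawn at the edge. The 3702 called genes lie at the upper right and lower left, and ITGB1 (−3.82 and 0.17) and TYMS (0.24 and −2.33) lie off the diagonal.

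Depth was 7069616 to 7690610 counts in control libraries, 8405960 to 8930458 with siTIP60-2 and 9510005 to 10545698 with siTIP60-11, so that depth and group moved together. No replicates held identical values. Mitochondrial genes took 2.69 to 2.80% of counts in controls, 2.80 to 2.90% with siTIP60-2 and 4.02 to 4.31% with siTIP60-11. Of 9 epithelial markers, KRT8 (1226 TPM), KRT18 (1279), KRT19 (424) and EPCAM (198) were high in controls, CDX2 (7.71), CDH1 (3.45) and VIL1 (0.627) were low, and CDX1 and CDH17 were at 0 in all 9 libraries. Fibroblast markers summed to 3.30 to 4.42 TPM in controls and to 2.97 to 4.78 TPM after depletion, with 6 of 10 at 0 throughout. Endothelial markers had 4 of 7 at 0 and secretory cell markers 9 of 18. Changes moved with transcript length. With genes split by length into 5 equal groups, in the shortest group the median log2 change was −0.18, with 3.57% called higher and 17.1% lower, and in the longest group it was 0.19, with 23.4% higher and 5.30% lower. The trend was present with both siRNAs, from −0.25 to 0.28 with siTIP60-2 and from −0.08 to 0.12 with siTIP60-11, and with both BRD8 siRNAs, set against the same 3 controls, from −0.24 to 0.22 and from −0.20 to 0.12. It was thus not limited to TIP60 siRNAs, and its part in the results below was not tested. Values from a fit in which length was adjusted for (gene length offset) are given beside several lists.

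**Figure D2:**
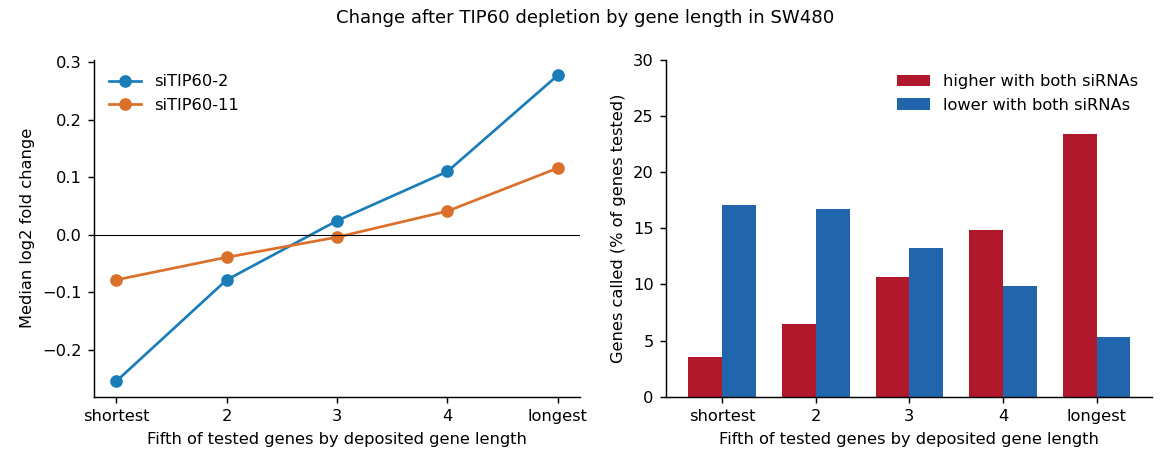
Median log2 fold change of the tested genes in 5 equal groups of transcript length, for each TIP60 siRNA against control in SW480, and the share of each group called higher or lower with both siRNAs. Medians rise from −0.25 to 0.28 with siTIP60-2 and from −0.08 to 0.12 with siTIP60-11, shortest to longest.

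The 20 protein-coding genes that rose most, ranked by the smaller of the 2 changes among genes with a mean of at least 50 counts, were of varied kinds. GZMB, the granule protease granzyme B of cytotoxic lymphocytes, stood at 3.84, 4.50 and 3.74 CPM in controls, at 27.5, 34.1 and 40.8 with siTIP60-2 and at 22.5, 25.2 and 20.6 with siTIP60-11. Every depleted library was at least several times above every control. The log2 changes were 3.08 ± 0.18 and 2.49 ± 0.18 (edgeR adjusted p = 1.55e-10). NR2F1, an orphan nuclear receptor, went from 7.55, 10.4 and 8.07 CPM to 43.0, 43.7 and 33.5 and to 37.9, 47.6 and 42.3. Its rise was alike with both siRNAs, by 2.20 ± 0.13 and 2.29 ± 0.13, and the difference between them did not pass the test (edgeR adjusted p = 0.501). ABAT, the transaminase that breaks down the transmitter GABA, went from 21.01, 23.6 and 21.2 CPM to 97.2, 101 and 96.2 and to 122, 123 and 130.3. The groups were well separated and siTIP60-11 gave the higher level. SYTL2, an effector of RAB27 in vesicle transport, rose by 1.77 ± 0.12 with siTIP60-2 and by 3.22 ± 0.10 with siTIP60-11.

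Other genes among the 20 were the glutamate transporter gene SLC1A2 (log2 changes 1.90 and 1.62), the complexin gene CPLX2 of synaptic vesicle release (1.48 and 2.05), DPYSL3 of growth cones (1.92 and 1.72) and the teneurin adhesion gene TENM2 (1.62 and 1.86). KRT74 (1.81 and 2.82) and KRT15 (1.303 and 1.47), both keratin genes, rose, as did the keratin-associated protein gene KRTAP2-3 (1.31 and 2.29). LTBP2, a microfibril protein of the matrix, rose from 50.5, 57.3 and 56.3 CPM to 149.7, 160.3 and 145 and to 146, 152 and 163. IGFBP3, which binds insulin-like growth factors outside the cell, rose by 1.39 and 1.41. PIK3R3, a regulatory subunit of phosphoinositide 3-kinase (1.66 and 1.82), GALNT10, which starts mucin-type glycosylation (2.07 and 1.77), the tetraspanin gene TSPAN2 (1.93 and 1.80), the retinol dehydrogenase gene RDH5 (1.36 and 1.80) and the nonmuscle myosin gene MYH14 (1.70 and 1.31) rose as well. BIRC3 and H2BC5, also among the 20, are described with their lists.

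The falls were smaller. NUCB2, a calcium-binding protein of the secretory pathway and precursor of nesfatin, stood at 111, 114 and 109.5 CPM in controls, at 37.1, 35.5 and 41.5 with siTIP60-2 and at 31.7, 33.5 and 31.0 with siTIP60-11. It fell by 1.55 ± 0.07 and fell by 1.80 ± 0.07 (edgeR adjusted p = 7.17e-15). RBBP4, a histone-binding subunit of chromatin assembly factor CAF-1 and of the NuRD and Polycomb complexes, stood at 214, 210.0 and 207 CPM in controls. Its levels were 69.8, 69.6 and 82.9 with siTIP60-2 and 81.3, 87.1 and 70.1 with siTIP60-11. The 2 siRNAs left it at overlapping levels, all well below control, with log2 changes of −1.503 ± 0.07 and −1.40 ± 0.07. INHBE, the activin E subunit gene and a known ATF4 target, went from 47.5, 52.1 and 50.7 CPM to 19.7, 21.6 and 17.5 and to 9.46, 10.4 and 9.68.

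The 20 largest falls by the same rule included KAT5 and several genes of the secretory pathway. CCPG1, a receptor for autophagy of the endoplasmic reticulum (ER), fell by 1.38 and 1.44, and SEC24D, a cargo adaptor of the COPII coat, fell by 1.27 and 1.68. HID1 of dense core vesicle formation (−1.28 and −2.31), SPCS3, DNAJB9 and SSR3, described with the ER genes, and SPX, the gene of the peptide spexin (−1.23 and −2.16, a call lost with limma on log2(TPM + 0.1)), fell too. Outside that pathway were the circadian receptor gene NR1D2 (−1.30 and −1.46), the arrestin-like gene ARRDC3 (−1.23 and −1.47), the mitochondrial carrier gene SLC25A30 (−1.35 and −1.66), CAP2 of actin turnover (−1.31 and −1.34), the signalling adaptor genes TIFA (−1.65 and −1.20) and GAB2 (−1.38 and −1.17), BEX2 (−1.19 and −1.70), the elongation factor gene TCEA3 (−1.28 and −1.17) and SCOC (−1.60 and −1.15).

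**Figure D3:**
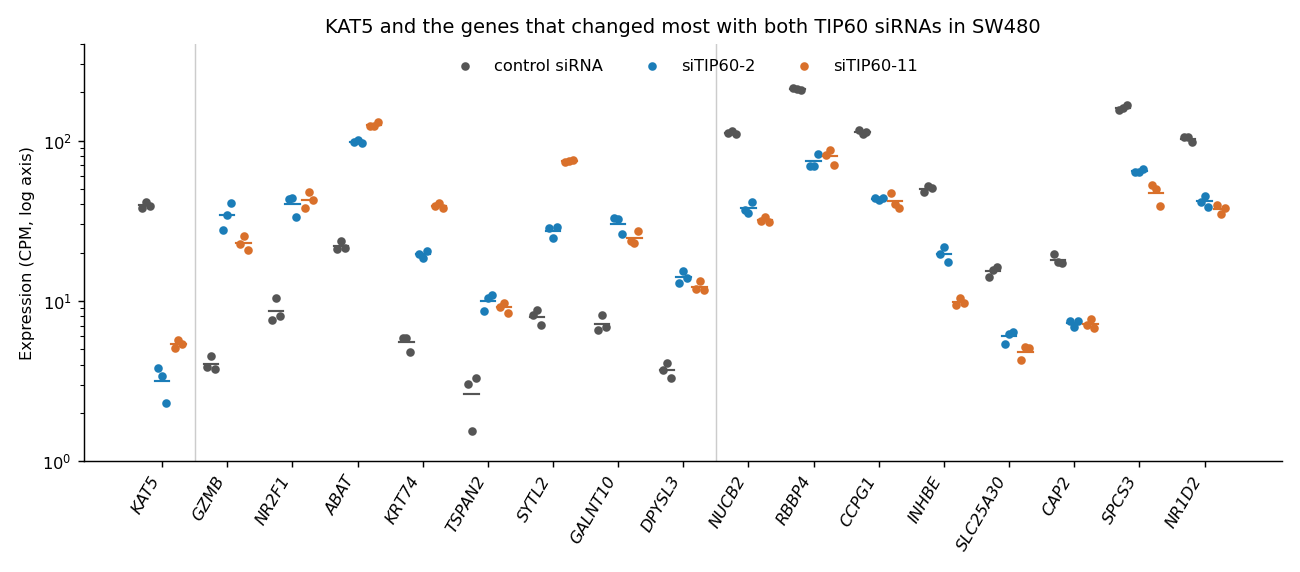
Expression in CPM (log axis) of KAT5, the 8 genes that rose most and the 8 that fell most with both siRNAs, in each of the 9 SW480 libraries, with dots for libraries and a line for the mean of 3. In all 17 genes the 6 depleted libraries lie beyond the 3 controls, as for ABAT (21.01 to 23.6 CPM in controls, 96.2 to 130.3 after depletion). Genes other than KAT5 were picked for the size of their change, which favours such separation.

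Genes of the ER stress response fell together. Proteins bound for secretion enter the ER through the SEC61 translocon, are freed of their signal peptide and fold with chaperones, and when folding falls behind, the sensors IRE1 (ERN1), PERK (EIF2AK3) and ATF6 raise chaperones and degradation factors. Of 26 ER stress genes tested, 22 fell (84.6%, against 12.4% of all genes) and none rose, with a median of −0.67 (−0.71 with siTIP60-2 and −0.74 with siTIP60-11). All 22 lay below control in all 6 libraries. Nearly all called genes were likewise beyond control in every depleted library, as were 34.3% of all genes, so this adds little to the call. The 4 not called were DERL3, CRELD2, ERN1 and DERL1. With TPM 16 of the 26 were lower, and with the length offset 22.

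HSPA5, the main ER chaperone BiP, stood at 2299, 2326 and 2269 CPM in controls, at 1225, 1263 and 1303 with siTIP60-2 and at 841, 809.7 and 851 with siTIP60-11. Controls, siTIP60-2 and siTIP60-11 formed 3 separate levels, and the siRNAs differed (edgeR adjusted p = 5.12e-11). The log2 changes were −0.86 ± 0.05 and −1.46 ± 0.05. XBP1, the transcription factor activated by IRE1, went from 183, 181 and 189 CPM to 113, 115 and 110.2 and to 65.0, 65.2 and 68.0. HSP90B1, the ER form of the HSP90 chaperone, went from 959, 972 and 956 CPM to 539.5, 531 and 561 and to 523, 514 and 519. Here the siRNAs gave close levels, and their difference did not pass the test (edgeR adjusted p = 0.291). DNAJB9, a co-chaperone of BiP, fell most by the mean of both siRNAs, by 1.36 and 1.29. MANF (−0.94 and −1.24), SDF2L1 (−1.25 and −0.89) and HERPUD1 of ER-associated degradation (−1.09 and −0.89) fell as well. Of the sensors, EIF2AK3 (−0.44 and −0.44) and ATF6 (−0.29 and −0.32) fell by small amounts and lost their calls with TPM, and ERN1 stood at −0.16 and −0.06 and was not called.

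The promoters of ER chaperone genes are known for the ER stress element, to which ATF6 and XBP1 bind together with the factor NF-Y. It was searched as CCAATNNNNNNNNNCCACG on both strands of 300 bases (250 before and 50 after the gene start) from RefSeq (GRCh38.p14), where 10725 of the 15277 tested genes were matched by symbol. It was found in 6 of 23 matched ER stress promoters (26.1%), in 9 of 1493 of the genes that fell (0.60%), in 1 of 1393 of those that rose (0.072%) and in 14 of all 10725 (0.13%). The element was added to the search after the data were seen. HSPA5, XBP1, HSP90B1, CANX and CALR hold it and belong to both the ER stress list and the genes that fell. The shares of those sets are therefore not independent of each other. A match is a description of letters, not of binding. The 250 bases before the start of the 3 genes with a match that fell most are shown 5′ to 3′ on the gene's strand because these genes carry both the fall and the element; capitals mark the match, which is on the opposite strand for the second match of HSP90B1. They lie at chr9:125241344-125241593 (minus strand) for HSPA5, chr22:28800570-28800819 (minus strand) for XBP1 and chr12:103930160-103930409 (plus strand) for HSP90B1.
HSPA5: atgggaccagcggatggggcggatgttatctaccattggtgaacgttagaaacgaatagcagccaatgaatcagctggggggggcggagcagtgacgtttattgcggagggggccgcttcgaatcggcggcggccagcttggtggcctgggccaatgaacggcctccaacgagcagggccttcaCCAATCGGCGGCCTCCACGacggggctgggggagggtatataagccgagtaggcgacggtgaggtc
XBP1: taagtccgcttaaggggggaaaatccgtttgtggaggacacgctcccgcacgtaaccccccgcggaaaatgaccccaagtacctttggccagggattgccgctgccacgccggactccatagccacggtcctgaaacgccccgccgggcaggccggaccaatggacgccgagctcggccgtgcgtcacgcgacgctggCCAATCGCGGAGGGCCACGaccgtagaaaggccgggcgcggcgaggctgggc
HSP90B1: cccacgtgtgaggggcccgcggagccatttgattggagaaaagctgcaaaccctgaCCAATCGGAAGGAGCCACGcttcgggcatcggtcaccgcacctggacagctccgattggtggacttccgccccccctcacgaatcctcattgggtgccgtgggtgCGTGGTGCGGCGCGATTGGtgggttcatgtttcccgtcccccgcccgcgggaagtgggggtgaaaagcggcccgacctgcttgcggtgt
The nearest matches start 66, 52 and 89 bases before the gene start in HSPA5, XBP1 and HSP90B1.

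Signal peptidase, translocon and TRAP genes, which serve the entry of proteins into the ER, fell in 13 of 16 cases with none higher (median −0.65, with 9 lower by TPM and 12 with the length offset), against 12.4% lower among all genes. This list was assembled after values had been seen, so that its count describes its members only. SPCS3, a signal peptidase subunit, stood at 155, 158 and 167 CPM in controls, at 63.9, 64.0 and 66.3 with siTIP60-2 and at 52.7, 49.97 and 38.9 with siTIP60-11. No depleted library came near the controls. Of the translocon-associated TRAP complex, SSR3 (−1.32 and −1.21), SSR1 (−0.99 and −1.52), SSR2 (−0.83 and −0.81) and SSR4 (−0.79 and −0.49) fell. SEC11A, SPCS1 and SEC61A2 were not called. COPII coat genes, also listed after values were seen, fell in 4 of 12 cases with none higher (median −0.14, and 0.05 with TPM), led by SEC24D.

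**Figure D4:**
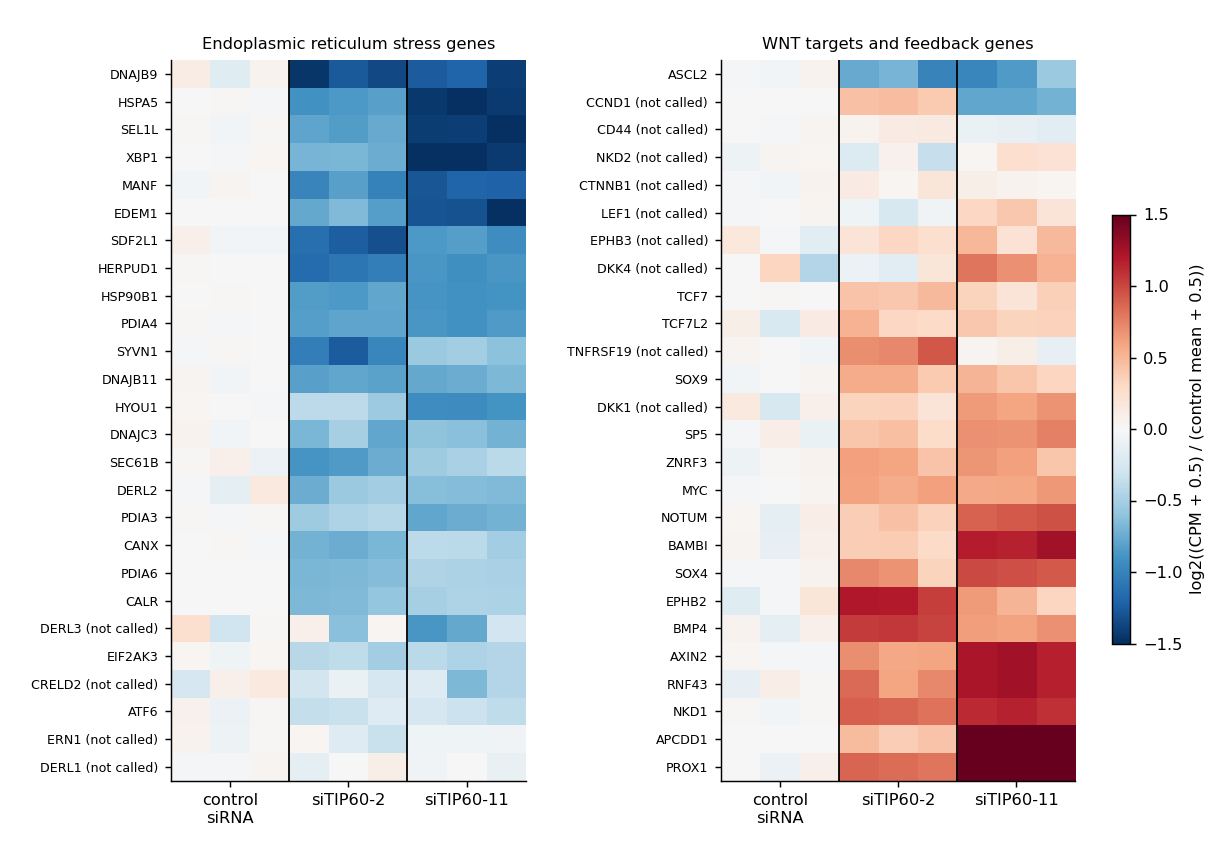
Heat map of log2((CPM + 0.5)/(mean control CPM + 0.5)) for the 26 ER stress genes (left) and the 26 WNT targets and feedback genes (right), as rows, in the 9 SW480 libraries (columns), with genes that were not called marked and colours ending at ±1.5. ER genes such as HSPA5 (−0.86 and −1.46) are lower in all 6 depleted libraries, and WNT genes such as AXIN2 (0.62 and 1.22) are higher.

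ATF4, the transcription factor whose translation rises when the kinases PERK, GCN2 and others phosphorylate eIF2, drives amino acid synthesis, tRNA charging and stress factors. Genes of all 3 kinds fell in SW480. Of 14 genes of amino acid and one-carbon synthesis, 12 fell and none rose (median −0.50, with 6 lower by TPM and 13 with the length offset), and ALDH1L2 and ALDH18A1 were not called. ASNS, the asparagine synthetase, stood at 981, 965 and 991 CPM in controls, at 687, 701 and 730.2 with siTIP60-2 and at 699.9, 695 and 715 with siTIP60-11. Both siRNAs lowered it to overlapping levels, by 0.47 and 0.48 on the log2 scale, and control and depleted libraries did not overlap. GOT1, an aspartate transaminase, went from 148, 152 and 145 CPM to 101, 98.7 and 108 and to 82.1, 84.1 and 87.9. The serine synthesis gene PSPH (−1.03 and −0.42), PYCR1 of proline synthesis (−0.63 and −0.47), and the mitochondrial folate enzyme genes MTHFD2 (−0.76 and −0.33) and SHMT2 (−0.46 and −0.52) fell with them.

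Of 18 stress regulators of the ATF4 pathway, ATF4 itself included, 9 fell and none rose (median −0.49, with 4 lower and 1 higher by TPM). ATF4 RNA stood at 657, 668 and 657 CPM in controls, at 559, 565 and 607 with siTIP60-2 and at 606, 582 and 611 with siTIP60-11. Its fall was small, by 0.19 and 0.14, narrowly passed the test (edgeR adjusted p = 0.0496) and kept its call in 5 of 19 alternatives. DDIT3, the factor CHOP, stood at 382, 382 and 384 CPM in controls, at 187, 194 and 195 with siTIP60-2 and at 132, 134 and 135 with siTIP60-11. Replicates hardly varied and the 3 groups stood apart, with log2 changes of −0.99 ± 0.06 and −1.52 ± 0.06 (edgeR adjusted p = 1.55e-12). NUPR1, a small stress-induced chromatin protein (−1.82 and −0.69), the secreted factor gene GDF15 (−0.92 and −1.18) and PPP1R15A, whose product directs eIF2 dephosphorylation (−0.67 and −1.15), fell. ATF3 fell by 0.60 and 1.03, a call lost with TPM. NIBAN1 stood at −0.01 and −1.63, so that it passed the test with siTIP60-11 and not with siTIP60-2, and the siRNAs differed (edgeR adjusted p = 5.15e-15). DDIT4 (−0.08 and 0.02) and SESN2 (0.12 and 0.23) were not called.

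Cytosolic aminoacyl-tRNA synthetases, which charge tRNAs with amino acids, numbered 20, of which 12 fell and 1 rose (median −0.42, with 5 lower and 2 higher by TPM and 14 lower and 1 higher with the length offset). CARS1, the cysteine enzyme, went from 200.3, 218 and 209.9 CPM to 117, 117 and 126 and to 113, 107 and 115. The 6 depleted libraries spanned a narrow range below control. WARS1 (−0.58 and −0.84), GARS1 (−0.62 and −0.78) and LARS1 (−0.57 and −1.003) fell, LARS1 losing its call with TPM. QARS1, the glutamine enzyme, rose by 0.30 and 0.33. IARS1 for isoleucine stood at 732, 703 and 721 CPM in controls, at 612, 587 and 607 with siTIP60-2 and at 347, 338 and 335 with siTIP60-11. It lay below control with both but much further with siTIP60-11 (−0.26 and −1.08), and the call was lost with TPM. Amino acid transporters divided, with 5 of 15 higher and 6 lower (6 and 1 by TPM). The cystine carrier gene SLC7A11 fell (−0.65 and −1.27) and the cationic amino acid carrier gene SLC7A2 rose (1.10 and 0.99). SLC3A2, the heavy chain of several carriers, fell (−0.41 and −0.37, lost with TPM), and its light chain partner SLC7A5 rose (0.42 and 0.52).

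The composite element that ATF4 binds with C/EBP factors was searched as TGATGNAA on both strands of the same windows. It was found in 6 of 16 matched tRNA synthetase promoters (37.5%), 2 of 9 amino acid synthesis promoters and 3 of 17 of the stress regulators. Of all tested genes with a promoter 175 held it (1.63%), of those that fell 40 (2.68%) and of those that rose 14 (1.01%). IARS1 of the tRNA synthetases and 3 members of the ATF4 lists are shown, with the match in capitals, on the opposite strand in GOT1 and IARS1. Among members with a matched promoter, no other called fall of these lists had the match within 250 bases before the start. Promoters were matched for 9 of 14 amino acid synthesis genes, 17 of 18 stress regulators and 16 of 20 tRNA synthetases. The remaining members, called falls among them, were not searched. Matches counted above in other members lay in genes not called lower or reached past the gene start. The stretches shown lie at chr7:97872409-97872658 (minus strand) for ASNS, chr1:212565157-212565406 (plus strand) for ATF3, chr10:99430625-99430874 (minus strand) for GOT1 and chr9:92293698-92293947 (minus strand) for IARS1.
ASNS: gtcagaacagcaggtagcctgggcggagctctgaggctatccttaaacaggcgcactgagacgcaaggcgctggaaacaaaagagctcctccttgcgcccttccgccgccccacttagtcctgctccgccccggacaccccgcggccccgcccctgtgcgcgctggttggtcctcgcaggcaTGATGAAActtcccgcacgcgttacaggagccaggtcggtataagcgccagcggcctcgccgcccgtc
ATF3: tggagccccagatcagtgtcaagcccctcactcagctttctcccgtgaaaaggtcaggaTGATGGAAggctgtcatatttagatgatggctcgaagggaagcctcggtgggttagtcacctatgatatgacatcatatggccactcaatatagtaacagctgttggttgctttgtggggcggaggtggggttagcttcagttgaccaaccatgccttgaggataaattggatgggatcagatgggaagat
GOT1: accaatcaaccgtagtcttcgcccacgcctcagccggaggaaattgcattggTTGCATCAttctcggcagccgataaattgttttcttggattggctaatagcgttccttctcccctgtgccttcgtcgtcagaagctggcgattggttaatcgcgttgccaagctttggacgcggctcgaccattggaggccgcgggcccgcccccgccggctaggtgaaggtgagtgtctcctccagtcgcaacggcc
IARS1: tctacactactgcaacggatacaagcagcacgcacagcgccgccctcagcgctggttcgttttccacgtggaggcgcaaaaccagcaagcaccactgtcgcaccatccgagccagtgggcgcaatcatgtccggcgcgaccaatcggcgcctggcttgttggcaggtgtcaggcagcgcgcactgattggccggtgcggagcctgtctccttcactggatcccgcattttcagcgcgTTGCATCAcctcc
In ASNS, which fell by nearly the same amount with both siRNAs, the match starts 68 bases before the start.

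Targets of WNT signalling rose in the majority of cases. In SW480 beta-catenin is stable, and TCF/LEF factors drive targets that include inhibitors of the pathway itself. Of 26 WNT targets and feedback genes tested, 16 rose (61.5%, against 11.8% of all genes) and 1 fell, with a median of 0.51 (0.43 with siTIP60-2 and 0.59 with siTIP60-11), and by TPM 18 rose and 1 fell. Feedback inhibitors were among them. AXIN2, the scaffold of beta-catenin destruction, stood at 158, 153 and 153 CPM in controls, at 250.5, 231 and 234 with siTIP60-2 and at 362, 369.6 and 348 with siTIP60-11. Levels stepped up from control to siTIP60-2 to siTIP60-11 without overlap, by 0.62 ± 0.05 and 1.22 ± 0.05 (edgeR adjusted p = 1.04e-09). NKD1, an antagonist of Dishevelled, went from 182, 175 and 182 CPM to 336, 328 and 317 and to 391, 399 and 384. APCDD1, which binds WNT ligands at the surface, went from 176, 178 and 178 CPM to 246, 229 and 239 and to 522, 528 and 538. The receptor-removing ligases RNF43 (0.73 and 1.23) and ZNRF3 (0.55 and 0.57) and the secreted inhibitor NOTUM (0.39 and 0.94) rose. Of transcription factors, PROX1 (0.86 and 1.74), SOX4 (0.60 and 0.98), SP5 (0.39 and 0.71), SOX9 (0.51 and 0.42) and TCF7 (0.44 and 0.30) rose, and the intestinal stem cell factor ASCL2 fell (−0.84 and −0.80). The receptor EPHB2 (1.17 and 0.51) and the ligand BMP4 (1.05 and 0.65) rose, and CTNNB1, encoding beta-catenin, stood at 0.11 and 0.05 and was not called. CCND1, encoding cyclin D1, moved in opposite directions, with 1300.3, 1289 and 1297 CPM in controls, 1761, 1790.2 and 1703 with siTIP60-2 and 753, 755 and 795 with siTIP60-11. The siRNAs differed (0.44 and −0.75, edgeR adjusted p = 7.93e-16), and CCND1 was not called.

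MYC, which is both a WNT target and a factor that recruits TIP60, went from 421, 428 and 442 CPM to 652, 633 and 661 and to 638, 645 and 675. The siRNAs gave overlapping levels (0.59 ± 0.05 and 0.60 ± 0.05). In the MYC network of 11 tested genes, MXD4, a partner of MAX that opposes MYC, rose (0.74 and 1.43) and MLX fell (−0.70 and −0.61), with 2 higher and 3 lower in all. Among 39 ribosome biogenesis genes, many of them known MYC targets, 6 rose and 10 fell (8 and 3 by TPM). POLR1A of RNA polymerase I (0.54 and 0.77) and UTP20 (0.80 and 0.38) rose, and UTP18 (−0.56 and −0.41), BRIX1 (−0.53 and −0.41) and WDR12 (−0.55 and −0.32) fell. Without siTIP60-11 replicate 3 the number higher was 3.

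Epithelial identity genes changed in both directions, with 3 of 15 higher and 3 lower (6 and 1 by TPM). CDX2, the intestinal homeobox factor, went from 15.9, 18.6 and 16.7 CPM to 33.4, 30.4 and 33.7 and to 49.98, 50.1 and 52.7. ESRP1, an epithelial splicing regulator, went from 98.7, 97.1 and 109 CPM to 45.0, 50.5 and 50.03 and to 33.8, 30.8 and 28.5. CDX2 thus rose and ESRP1 fell with both siRNAs, both further with siTIP60-11. Of tight junction genes 2 of 16 rose (1 without siTIP60-11 replicate 3) and 3 fell, with CLDN7 at −0.83 and −0.82 and TJP1 at 0.42 and 0.40. These shares were 12.5% higher and 18.8% lower, against 11.8% and 12.4% of all genes. Among 16 mesenchymal genes 4 rose (25%) and 3 fell (18.8%). FN1, fibronectin, rose from 96.5, 102 and 94.0 CPM to 158, 167 and 156 and to 217, 207 and 221. TGFBI rose (0.49 and 1.10). Of 21 integrin and basement membrane genes, ITGB8 rose (2.13 and 1.53) and ITGB6 fell (−2.54 and −0.79, edgeR adjusted p = 0.0300). ITGB6 had only 2.24 to 4.22 CPM in controls and lost its call in 9 of 19 alternatives, among them DESeq2, TPM, and leaving out control replicate 2 or any 1 siTIP60-11 library. The number higher was 2 without control replicate 3 or siTIP60-11 replicate 1 and 3 without siTIP60-2 replicate 3. These genes are long, and the list median of 0.11 was −0.02 with the length offset. Among 21 TGF-beta and BMP genes 5 rose and 2 fell, with SMAD7, a SMAD inhibitor, at 0.44 and 0.59 and BAMBI at 0.35 and 1.205.

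Cell cycle lists differed in how many members both siRNAs moved, against 11.8% higher and 12.4% lower among all genes, and several members moved apart with them. Of 38 replication fork genes, siTIP60-2 alone gave 18 higher and 3 lower and siTIP60-11 gave 4 higher and 14 lower, and both together gave 2 higher and 2 lower (5.26% each, with 1 in each direction without control replicate 1, siTIP60-11 replicate 1 or siTIP60-11 replicate 3). CLSPN, the checkpoint mediator claspin, stood at 1.22 with siTIP60-2 and −0.20 with siTIP60-11. Among 15 pre-replication genes 1 rose and 4 fell (26.7%), with CDC6 at −0.30 and −0.84 (lost with TPM) and MCM2 at 0.53 and 0.24 (lost without siTIP60-11 replicate 3). Of 22 G1/S regulators 2 rose and 4 fell (18.2%, with 2 lower without control replicate 2). ASF1B (1.07 and 0.56) and CDK6 (0.62 and 0.74) rose, and ASF1A fell (−0.78 and −0.90, lost with TPM). Of 40 G2/M genes 12 fell (30%) and 4 rose (10%), with a median of −0.13. Their median was 0.18 with TPM, where 1 was lower and 4 higher, so that the direction depended on the scaling. AURKA, a kinase of the spindle poles, fell (−0.52 and −0.59) in every alternative. CCNA2, cyclin A2, went from 155, 148 and 149 CPM to 125, 129.6 and 128 and to 61.5, 61.8 and 53.7, far lower with siTIP60-11 and lost with TPM. MKI67, the proliferation marker Ki-67, rose by 1.00 and 0.33, a call lost with the length offset. Of 17 growth arrest genes 5 rose (29.4%) and 3 fell (17.6%), among them the CDK4 and CDK6 inhibitor gene CDKN2B (1.07 and 0.53), BTG2 (0.61 and 0.98) and GADD45G (−1.12 and −1.35). Homologous recombination and Fanconi anaemia repair genes had 2 of 30 higher and 5 lower, with 0 higher without control replicate 2, 1 higher without any 1 siTIP60-2 library, and 3 lower without that library, control replicate 3, siTIP60-2 replicate 2 or siTIP60-11 replicate 1. Damage signalling had 4 of 21 higher and 3 lower, with ATRIP, the partner of the ATR kinase, at 0.88 and 0.73. The number higher was 1 without control replicate 2 and 2 without siTIP60-11 replicate 1. Nucleotide synthesis had 3 of 23 in each direction (1 higher without control replicate 3), with GMPS of guanine nucleotide synthesis at −0.997 and −0.54.

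Several other subunits of the TIP60 complex changed. Of 18 genes with KAT5 included, 3 rose (16.7%, against 11.8% of all genes) and 7 fell (38.9%, against 12.4%), with a median of −0.10, and 0.14 with TPM, where 2 were higher and 2 lower. EPC1, the enhancer of Polycomb subunit that activates the enzyme, went from 17.2, 20.5 and 16.6 CPM to 31.5, 30.2 and 28.4 and to 32.5, 27.9 and 31.9. All 6 depleted libraries exceeded the controls and the siRNAs overlapped. MORF4L2, encoding an MRG-domain protein, fell (−0.62 and −0.43). EP400 (0.74 and 0.46) rose, and the ATPase genes RUVBL1 (−0.35 and −0.35) and RUVBL2 (−0.41 and −0.31) fell, all of them lost with TPM. BRD8 stood at 59.2, 51.3 and 53.5 CPM in controls, at 61.1, 55.0 and 66.7 with siTIP60-2 and at 50.1, 54.3 and 49.9 with siTIP60-11. The groups overlapped and BRD8 was not called. Among 10 other acetyltransferase genes, KAT6A rose (0.83 and 0.52) and HAT1 fell (−0.41 and −0.19), HAT1 losing its call with TPM, with upper-quartile scaling and without control replicate 1, control replicate 2 or siTIP60-11 replicate 1.

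Of 55 replication-dependent histone genes 35 passed the filter on low counts, 4 rose and 2 fell (1 lower without control replicate 1, control replicate 2 or siTIP60-2 replicate 2). These shares, 11.4% higher and 5.71% lower, were below the 11.8% and 12.4% of all genes. H2BC5 went from 9.47, 10.5 and 10.5 CPM to 22.2, 29.4 and 26.0 and to 25.4, 21.9 and 28.1. H2BC12 (0.88 and 1.16), H2BC21 (0.64 and 1.13) and H2AC6 (0.31 and 0.72) rose with it. The 4 genes that rose can give polyadenylated transcripts, and reads of histone genes may be shared among close copies, so single values are uncertain. H2AZ1, encoding the variant that the complex deposits, fell (−0.50 and −0.33), and so did ANP32E, a chaperone that removes it (−0.44 and −0.48), both lost with TPM. SUPT16H of the FACT chaperone rose (0.64 and 0.31).

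Of 36 interferon-stimulated genes 5 rose (13.9%) and 6 fell (16.7%), shares close to the 11.8% and 12.4% of all genes (7 and 2 by TPM). OAS3, a sensor of double-stranded RNA, went from 12.9, 12.4 and 12.6 CPM to 32.7, 28.4 and 30.4 and to 42.0, 39.4 and 39.0. SAMD9, an antiviral factor, went from 0.961, 0.843 and 0.448 CPM to 3.34, 4.84 and 4.08 and to 5.42, 4.50 and 4.60. Both were higher in every depleted library. OAS2 (1.11 and 2.01) and the RNA helicase gene IFIH1 (0.94 and 1.12) rose, and the immunoproteasome gene PSMB8 (−0.75 and −0.76) and BST2 (−0.89 and −0.56) fell. Of 13 NF-kappaB targets 4 rose and 1 fell. BIRC3, an inhibitor of apoptosis, rose from 8.38, 11.5 and 8.96 CPM to 27.4, 27.5 and 23.5 and to 35.5, 39.5 and 31.1. The feedback inhibitor gene TNFAIP3 (1.05 and 1.12) and NFKB1 (0.98 and 0.66) rose, and the adhesion gene ICAM1 fell (−0.94 and −0.47). Of 12 leukocyte markers, GZMB and CD68 passed the filter and rose, CD68 losing its call without control replicate 1 or 2 or siTIP60-2 replicate 3. CD68 was near the floor, at 0 to 0.34 TPM in controls. It spanned 0.15 to 4.94 TPM with siTIP60-2, overlapping the controls, and 1.44 to 1.96 TPM with siTIP60-11. PTPRC, MS4A1 and NKG7 were at 0 in all 9 libraries. The markers summed to 7.04 to 8.66 TPM in controls, 51.5 to 78.7 with siTIP60-2 and 38.7 to 43.6 with siTIP60-11, of which GZMB was 6.64 TPM in controls and 61.1 and 38.1 TPM after depletion.

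Of 76 ribosomal protein genes 41 fell and none rose (median −0.31). They are short (median 593 bases). With the length offset 29 fell and 1 rose (median −0.10), with TPM 16 fell and 1 rose, and 24 and 25 fell without control replicate 2 and without siTIP60-11 replicate 1. RPL9 (−0.80 and −0.67) and RPS3A (−0.63 and −0.39) fell in every alternative, and their reads may be shared with pseudogenes. Ribosomal proteins took 10.4 to 10.8% of counts in controls, 8.11 to 9.22% with siTIP60-2 and 8.90 to 9.30% with siTIP60-11. Nuclear genes of oxidative phosphorylation, also short, numbered 33, of which 13 fell and 1 rose (median −0.27; 3 lower and 2 higher by TPM; 12 lower and 4 higher with the length offset; the rise lost without control replicate 1 or siTIP60-11 replicate 3), with NDUFA9 of complex I at −0.89 and −0.55 and CYC1 of complex III at −0.58 and −0.59. Of the 13 mitochondrially encoded mRNAs, siTIP60-11 raised 13, and siTIP60-2 raised 2 and lowered 1, MT-CO1 (−0.18, against 0.40 with siTIP60-11). MT-ND5 was called with both, from 845, 878 and 891 CPM to 1179, 1138 and 1172 and to 1395, 1599 and 1382. That single call depended on the processing, since 11 of the 13, which are short (median 784 bases), were higher with both siRNAs with the length offset (median 0.54, against 0.34) and 10 with TPM.

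In hypoxia and glycolysis, 9 of 26 genes fell and 1 rose (3 and 4 by TPM). VEGFA, the vascular growth factor, went from 96.1, 102 and 89.6 CPM to 48.2, 47.0 and 37.0 and to 50.5, 51.9 and 48.2. Levels were about alike with both siRNAs. NDRG1 (−0.84 and −0.48) and PGK1 (−0.64 and −0.30) fell, PFKL rose (0.53 and 0.52) and GAPDH stood at −0.11 and −0.01. In cholesterol synthesis 9 of 26 fell and 2 rose (3 and 6 by TPM). FDPS (−0.70 and −0.58), IDI1 (−0.72 and −0.51) and FDFT1 (−0.57 and −0.51), enzymes before and at squalene, fell. In fatty acid synthesis, FASN (0.61 and 0.77) and ACACA (0.48 and 0.72) rose and ME1, a source of NADPH, fell (−1.01 and −0.54), with 2 of 14 in each direction. Each share, 14.3%, was close to the 11.8% higher and 12.4% lower of all genes. Of 30 lysosome and autophagy genes 9 fell and 1 rose (3 and 2 by TPM, the rise lost without control replicate 1, control replicate 2 or siTIP60-11 replicate 3), with MAP1LC3B (−1.17 and −0.39) and the proton pump gene ATP6V1H (−1.15 and −0.71) lowest. Of 20 sphingolipid genes 4 rose and 1 fell, with UGCG (0.62 and 0.77) and B4GALT5 (0.74 and 1.11), which start the glycolipid series, higher.

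Immediate early genes rose in 7 of 21 cases and fell in 1 (0 without control replicate 2, control replicate 3 or siTIP60-11 replicate 1, and 2 without siTIP60-2 replicate 2), with JUN (0.64 and 0.77) and EGR3 (0.89 and 0.62). YAP and TEAD targets rose in 6 of 17 and fell in 4 (3 higher without control replicate 1), with CCN2 at 0.78 and 0.96 and CITED2 at 0.64 and 1.14. Of the ERK feedback list EGR1 rose and AREG fell among 23, the latter lost with TPM. Each share, 4.35%, was below the 11.8% higher and 12.4% lower of all genes. In the BCL2 family 4 of 15 rose (26.7%) and 3 fell (20%), PMAIP1, encoding the BH3 protein NOXA, falling by 1.03 and 0.83. Tubulins rose in 4 of 13 cases with none lower, TUBB3 by 0.40 and 0.41. Of 20 actomyosin genes 4 rose (20%) and 3 fell (15%, with 1 lower without siTIP60-11 replicate 1), with vinculin (VCL) at 0.44 and 0.88. These shares were not far from the 11.8% higher and 12.4% lower of all genes. Of 9 stratified keratins, KRT15 and KRT23 rose and KRT81 fell. No fibroblast (2 tested), endothelial (1) or secretory (3) marker was called.

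**Figure D5:**
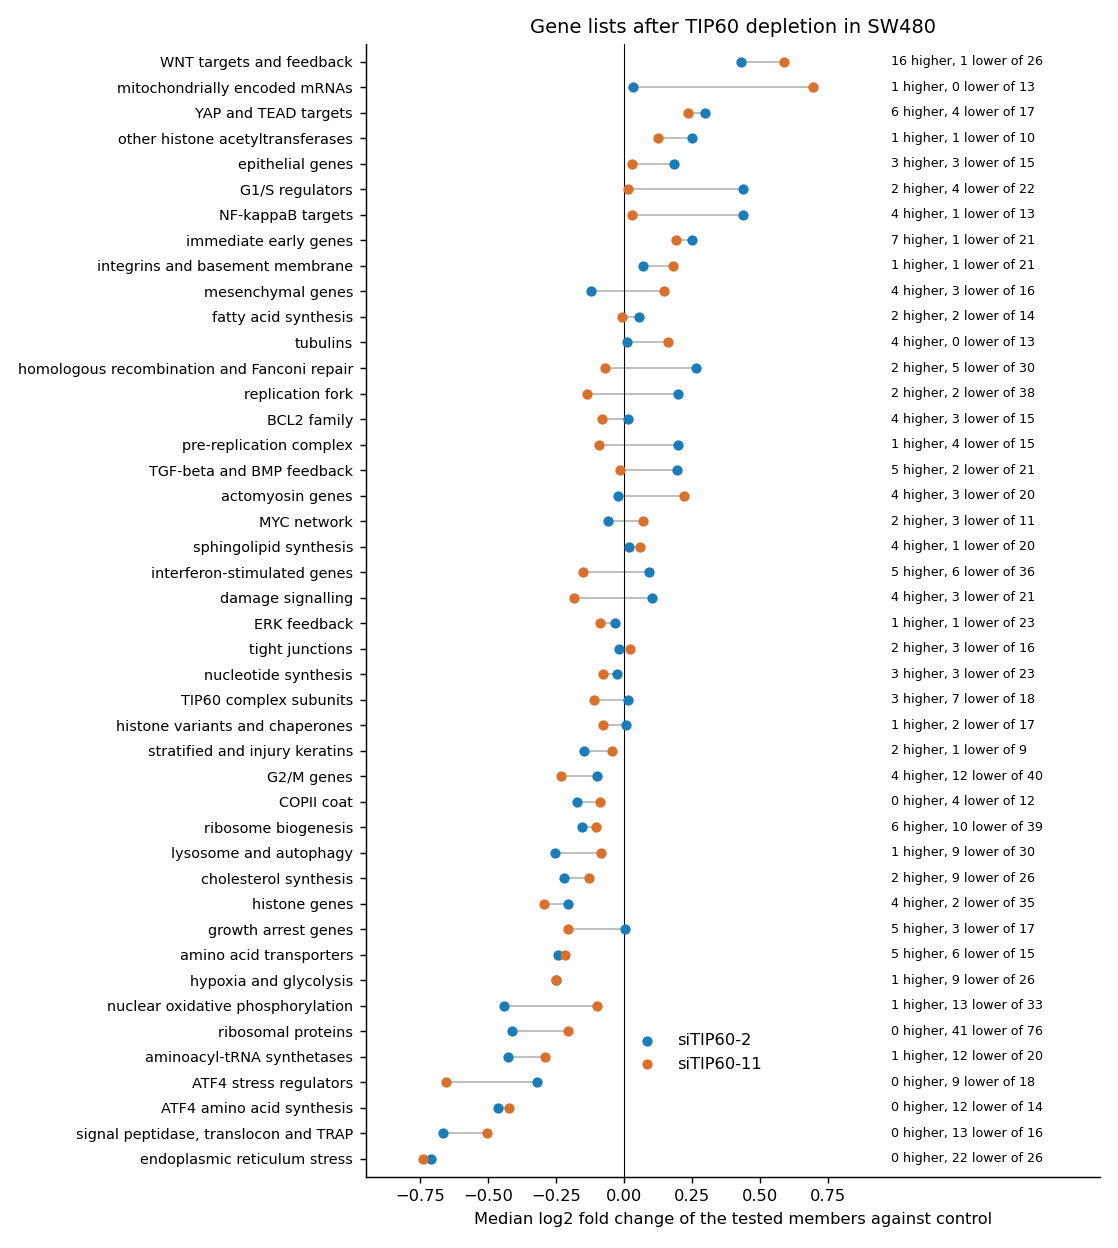
Median log2 fold change of each gene list with at least 8 tested members, for siTIP60-2 and siTIP60-11 against control in SW480, ordered by the list median of the mean change, with the numbers called higher and lower at the right. ER stress genes (−0.71 and −0.74) lie at the low end and WNT targets (0.43 and 0.59) at the high end, and the median of all genes is 0.01.

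By gene type, 48 of 498 lincRNAs rose and 13 fell (median 0.20), and 42 of 528 antisense genes rose and 15 fell (median 0.18), against 12.9% and 14.01% of protein-coding genes. Processed pseudogenes had 8 of 519 higher and 31 lower. AL359643.3 (1.67 and 1.49), AL391056.1 (1.28 and 1.54) and LINC00237 (1.02 and 1.59) led the lincRNAs, and LINC01622 (1.24 and 1.86), whose type the annotation used does not give, rose. NR2F1-AS1, the antisense neighbour of NR2F1, rose by 1.01 and 1.297, and since the strand setting of the counting is not given in the sources used here its reads cannot be told apart from those of overlapping genes. LINC00662 fell by 0.99 and 1.07. MALAT1, an abundant nuclear RNA, went from 839, 870.3 and 832 CPM to 456, 436 and 528 and to 579.8, 568 and 354, with a wide spread among siTIP60-11 libraries. The falls of EIF2S2P4 and RPS7P10, both processed pseudogenes, may be those of their parent genes. Called shares rose with expression, from 6.80% in the lowest of 5 equal groups of genes by count to 39.0% in the highest. By chromosome, they lay between 17.8% (chromosome 22) and 30.6% (chromosome 20).

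The siRNAs themselves differed at 6929 genes (45.4% of those tested), 3579 higher with siTIP60-2 and 3350 lower, among them 1557 of the 3702 shared calls. Apart from the 3702 shared calls, 459 genes passed the test with both siRNAs in opposite directions. That count and the 6929 overlap, CCND1 being in both. ITGB1, integrin beta 1, stood at 466, 458 and 457 CPM in controls, at 30.6, 33.6 and 33.5 with siTIP60-2 and at 537, 514 and 506 with siTIP60-11. ITGB1 lay far below control with siTIP60-2 and slightly above it with siTIP60-11 (−3.82 ± 0.06 and 0.17 ± 0.05), and in HCT116 its level went from 1107 CPM to 49.4 with siTIP60-2 and 733 with siTIP60-11. TYMS, thymidylate synthase, stood at 135, 145 and 142 CPM in controls, at 158, 166 and 172 with siTIP60-2 and at 29.03, 27.0 and 27.7 with siTIP60-11. TYMS lay below control with siTIP60-11 and slightly above it with siTIP60-2, and in HCT116 the means were 262, 246 and 64.7 CPM. Also lower with siTIP60-2 than with siTIP60-11 were NDP (by 2.85), MARVELD2 (by 2.26) and the pseudogenes AC022149.1 and AC078819.1. Higher with siTIP60-2 were ACBD7 (3.14), TRPV6 (2.54), SPRR2D (2.52) and the pseudogene AC009244.1 (2.44). TRPV6, a calcium channel, was below control with both, at 24.2 CPM in controls and at 11.1 and 1.88 after depletion.

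The response of SW480 was set against that of HCT116 by a line-by-treatment term in 1 model of the 30 libraries. It passed the test at 5425 genes (31.2% of 17411), and at 1844 of the 3702 genes called in SW480. Of these 1844, the mean change of both siRNAs in HCT116 had the opposite sign in 665, was smaller in 842 and larger in 337. That mean was not required to pass a test in HCT116 or to have a sign shared by both siRNAs. The 665 are thus not all genes that responded in opposite directions. The genes were chosen for their change in SW480, which favours a larger change there, so the split does not compare the strength of the lines. ER stress genes had a median of −0.46 in HCT116 and 19 of 26 differed between lines, and DNAJB9 stood at −0.14 in HCT116. Amino acid synthesis genes had a median of −1.16 in HCT116, lower than the −0.50 in SW480, and 7 of 14 differed. WNT genes had a median of 0.14 in HCT116 and 17 of 26 differed, NKD1 being higher in SW480 by 1.39 (edgeR adjusted p = 3.53e-13). MYC changed further in HCT116 (1.79, with a difference of −1.16). RBBP4 stood at −1.38 in HCT116 and its difference did not pass the test (edgeR adjusted p = 0.732), nor did that of NUCB2 (−1.39) or SEC24D (−1.43). KAT5 fell by 3.55 in HCT116, and its difference between lines was 0.33 (edgeR adjusted p = 0.0490). MMP24, TGFBI and ANKRD1 were among the largest differences, but their HCT116 control means were 0.0186, 0.0912 and 0.174 CPM, too low for a fold. LINC02457, TUBB2B, AC093904.4, RLN2 and ZFP3 likewise stood below 0.16 CPM in HCT116 and H3C2 at 0.0938 CPM. GZMB stood at 0.0425 CPM in HCT116 controls, and its difference between lines did not pass the test (edgeR adjusted p = 0.181).

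TIP60 and BRD8 depletion in SW480 differed at 9153 genes (59.9% of those tested), by the mean of 2 siRNAs each. Among the 3702 genes called for TIP60, 2665 differed, 2078 with the larger shift under TIP60 siRNAs in the direction of the call and 587 under BRD8 siRNAs. These genes were chosen for their change with TIP60 siRNAs, which favours that direction, so the split does not compare the strength of the targets. GZMB stood at 0.903 and 0.737 CPM with siBRD8-6 and siBRD8-36, below control, so that the targets differed by 5.02 ± 0.16 (edgeR adjusted p = 9.99e-19). APOE, a lipid carrier, stood at 43.4, 43.9 and 43.3 CPM in controls, at 13.3, 14.1 and 12.01 with siTIP60-2, at 20.3, 21.3 and 23.1 with siTIP60-11 and at means of 57.0 and 95.8 with the BRD8 siRNAs. It thus lay below control with TIP60 siRNAs and above it with BRD8 siRNAs. The plasminogen activator gene PLAT (3.63), the ligand gene IHH (4.09), LINC00513 (3.07) and AC016587.1 (3.18) were higher with TIP60 siRNAs at low CPM, and PTP4A3 (−2.50), TKTL1 (−2.59) and AL590560.2 (−2.47) were lower, these 3 losing their TIP60 call with TPM. ER stress medians were −0.21 and −0.63 with siBRD8-6 and siBRD8-36, and 23 of 26 members differed between targets. WNT medians were 0.69 and 0.67 with the BRD8 siRNAs, and 23 of 26 members differed between targets. The 3 whose difference did not pass the test were AXIN2 (−0.03 between targets, edgeR adjusted p = 0.428), TCF7 (edgeR adjusted p = 0.446) and TNFRSF19 (edgeR adjusted p = 0.251).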

How the data were processed

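RNA of 30 libraries (10 groups of 3) was sequenced as single reads from a strand-specific kit, per the labels' protocols. Trimmomatic 0.33, STAR 2.7.3a and RSEM 1.3.3 with the hg38 genome are named in the submitters' processing notes; no source used here states the annotation release or strand setting. The authors deposited RSEM expected counts per gene, which need not be whole and were rounded here. The authors also deposited TPM per gene, per the file headers, which served for marker levels and an alternative. Gene types and coordinates were matched for 58444 of 60617 gene IDs.

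Counts of all 15 SW480 libraries were fitted as group means with edgeR 4.0.16 in R 4.3.3 (TMM scaling, filterByExpr, robust quasi-likelihood test, Benjamini-Hochberg adjustment), which was tested on simulated data. A gene was called where both siRNAs moved it in 1 direction and the larger p, adjusted over all genes, was under 0.05. SE was taken as the absolute log2 change over √F. A fit of all 30 libraries gave the interaction with cell line. Named were KAT5, the 20 protein-coding and 5 other genes that changed most in each direction (mean of at least 50 counts), up to 6 called members of a list, and the 5 largest differences between lines, targets and siRNAs in each direction; further list members were named after their values were seen. Members and lists were chosen with earlier results of these data known. Alternatives were DESeq2 1.42.0, limma 3.58.1 on log2(TPM + 1) and log2(TPM + 0.1), other scalings and filters, only the compared libraries, a replicate block, each library left out, and a gene length offset added after seeing the data. Replicate numbers did not pair the libraries (correlations of same-numbered deviations from −0.06 to 0.03). A few genes are not reported here.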

Additional observations from a re-analysis of the deposited data

Results flagged for a closer look

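Of the 3702 genes called in SW480, 1844 differed between SW480 and HCT116 in their TIP60 response, by the interaction term of edgeR's fit of all 30 libraries. Among the named genes with at least 1 CPM in the controls of both lines, 2 are given here because their responses differed by this test by at least 2 on the log2 scale. SPX differed by 2.31 ± 0.38, SW480 minus HCT116 (edgeR adjusted p = 1.05e-05), with 11.8 CPM in SW480 controls and 5.03 and 2.63 with siTIP60-2 and siTIP60-11, against 4.80 CPM in HCT116 controls and 0.405 and 0.211. GAB2 differed by −2.11 ± 0.20, with 15.6 CPM in SW480 controls and 6.00 and 6.97 after depletion, against 4.01 CPM in HCT116 controls and 3.57 and 15.3. The term averages both siRNAs, which were not alike for GAB2 in HCT116. Its mean there was near control with siTIP60-2 and well above it with siTIP60-11.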

How the results depend on the processing

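The number of genes called with both siRNAs was 3053 to 3555 when each of the 9 libraries was left out, with 1471 to 1721 higher and 1582 to 1834 lower. Left out singly, libraries gave 6768 to 7225 calls with siTIP60-2, 6409 to 6612 with siTIP60-11, 6018 to 6578 between the siRNAs, 4682 to 5911 between lines and 8761 to 9181 between targets. No gene called in the report was called in the opposite direction under an alternative, and 1345 of the 3702 kept their call in all 19. The sign of the mean change did turn for some called genes. It turned for 80 on log2(TPM + 1), for 80 on log2(TPM + 0.1) and for 3 with the gene length offset. With limma, 474 genes were lower on log2(TPM + 1) and 464 on log2(TPM + 0.1), against 1900, and 1856 and 1874 of the 3702 calls were kept. DESeq2 kept 3070, upper-quartile scaling 3328 and the gene length offset 3016, the last chosen after seeing the data. The fit with a replicate block gave 3563 calls, 1749 higher and 1814 lower, with numbers that did not pair the libraries. A fit of only the 9 compared libraries, without the BRD8 libraries, gave 4057 calls, 1942 higher and 2115 lower. Calls of at least 2-fold numbered 293 against 3702 without that limit. The SW480 minus HCT116 difference of MMP24 reversed to 0.61 on log2(TPM + 1). ORC2 was called lower in SW480, with a mean log2 change of −0.35 against control. That mean change reversed to 0.0397 on log2(TPM + 1) and 0.0404 on log2(TPM + 0.1). The cause was not tested for either gene. For named genes, 2843 values under other settings kept direction and call, 273 lost the call and 3 reversed. Depth of 7069616 to 10545698 counts limits genes of few counts, and in the lowest of 5 groups by count 6.80% were called.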
